A study of Rattus norvegicus with 22 samples.

Results

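The genes described here are 7 members of the cholesterol efflux programme run by the liver X receptors (LXR): the lipoproteins' building block Apoe, the membrane transporters Abca1 and Abcg1, the receptors Nr1h3 and Nr1h2, the ubiquitin ligase Mylip and the phospholipid transfer protein Pltp. They were chosen by symbol, and 7 of 7 were found among the 17284 genes of the deposited table. All 7 passed the filter for testing (at least 1 FPKM in at least 3 samples), which 9691 genes passed.

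RNA sequencing measured 22 samples of microglia, the resident macrophages of the brain, panned on a CD11b antibody from brains of Sprague-Dawley rats at postnatal day 21, with the cerebellum and spinal cord removed. Acute cells (n = 3) were not cultured and saw no serum. TIC cells (n = 6) spent 8 days in TIC, a serum-free medium. FCS 1d (n = 5), FCS 3d (n = 4) and FCS 5d (n = 4) cells spent the same 8 days in culture, starting in TIC, with 10% fetal calf serum present for the last 1, 3 or 5 days. In the study's publication, TIC stands for a medium with TGF-beta, an interleukin that feeds the CSF1 receptor, and cholesterol, so sterol was supplied to all cultured groups. The labels do not say which samples share animals or a preparation, so p-values measure the spread between these samples.

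LXR proteins are nuclear receptors that bind oxidised cholesterol and its precursors, pair with a retinoid X receptor (RXR) and switch on genes that move cholesterol out of the cell. Abca1 loads cholesterol and phospholipid onto lipid-poor apolipoproteins, Abcg1 adds cholesterol to particles already formed, Apoe is the main apolipoprotein of such particles in the brain, Pltp passes phospholipid between particles, and Mylip is a ubiquitin ligase, switched on by LXR, that limits cholesterol uptake. In the brain, astrocytes are the main source of Apoe, and microglia make more of it in disease states described in mice and people. LXR binds a DR4 element, a pair of AGGTCA half-sites spaced by 4 bases.

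The promoters of Abca1 and Apoe are shown because these genes moved in opposite directions between Acute and TIC cells. Each runs 5′ to 3′ on the gene's strand from 250 bases before to 50 after a start, from RefSeq on build GRCr8, and capitals mark the one stretch that matched the DR4 search.
Abca1, chr5:72596424-72596723, minus strand: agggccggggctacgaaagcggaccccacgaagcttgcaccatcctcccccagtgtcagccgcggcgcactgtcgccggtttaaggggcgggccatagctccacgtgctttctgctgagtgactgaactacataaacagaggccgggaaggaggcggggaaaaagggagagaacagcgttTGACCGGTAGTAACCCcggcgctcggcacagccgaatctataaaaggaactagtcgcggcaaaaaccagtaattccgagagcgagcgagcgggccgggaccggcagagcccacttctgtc
Apoe, chr1:88484650-88484949, minus strand: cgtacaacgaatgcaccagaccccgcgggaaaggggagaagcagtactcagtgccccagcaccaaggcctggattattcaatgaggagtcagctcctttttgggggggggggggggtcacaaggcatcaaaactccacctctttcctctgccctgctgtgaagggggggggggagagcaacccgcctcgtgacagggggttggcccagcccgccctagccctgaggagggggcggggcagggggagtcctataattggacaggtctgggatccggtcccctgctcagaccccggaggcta
The search took AGGTCA, any 4 bases and AGGTCA again on both strands with at most 2 mismatches in a half-site and 3 in all. Of 8 windows for 6 of the genes, the Abca1 window was the one with a match, 70 to 55 bases before the start, which reads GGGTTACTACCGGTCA on the other strand with 3 mismatches. Such a match occurs in 18.6% of all 33465 RefSeq windows, and the exact element in 2 of them. The match describes the letters, and binding was not measured. DNA outside these windows was not searched, so a missing match does not speak to sites elsewhere. The Apoe window printed is the second of 3 that RefSeq gives for the gene.

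Levels are in FPKM, a count of fragments corrected for gene length and for library size, so they may be compared across genes. A change is a difference of group means of log2(FPKM + 1), given with its standard error (SE), and a gene was called changed where limma's Benjamini-Hochberg adjusted p was under 0.05. Libraries held 8115 to 9111 genes at 1 FPKM or more, and the read depth is not known from FPKM. The libraries split by their summed FPKM into 6 high ones (564301 to 696703), namely all 3 from Acute cells plus TIC 5, TIC 6 and FCS 1d 5, and 16 low ones (335470 to 434577). They split also by how many tested genes were listed at 0, into 12 libraries with few zeros (353 to 672) and 10 with many (934 to 1295), and every group held both kinds. TIC 5, TIC 6 and FCS 1d 5 all had few zeros, so the splits overlap among cultured libraries. The labels mention 2 batches that each included all conditions, but give no sample's batch, so neither split can be matched to them.

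The microglial marker list made up 3.00 to 3.94% of summed FPKM in Acute cells, 0.333 to 0.594% in TIC, 0.540 to 0.730% in FCS 1d, 0.784 to 1.00% in FCS 3d and 0.880 to 1.53% in FCS 5d. The growth factor receptor Csf1r was 1528 to 2760.2 FPKM in Acute and 344 to 921 FPKM in culture, and the homeostatic marker Tmem119 was 760 to 1856 FPKM in Acute and 2.01 to 110.7 FPKM in culture. The 10 astrocyte markers, all in the table, held 0.00315 to 0.0263% of summed FPKM in Acute and at most 0.00750% in any cultured library. Among them, Slc1a3 was 4.12 to 159.8 FPKM in Acute and at most 28.6 FPKM in culture, and Aldoc was 8.84 to 16.0 and at most 3.31 FPKM. Gfap and Aqp4 were at no more than 2.69 FPKM in Acute and listed at 0 in all cultured libraries. The part of astrocyte RNA in the Apoe level was not tested. Granulocyte and monocyte markers held 0.323 to 3.38% of summed FPKM in Acute and at most 0.014% in any cultured library. In bulk samples, fewer cells of a type and less RNA per cell cannot be told apart.

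**Figure D1:**
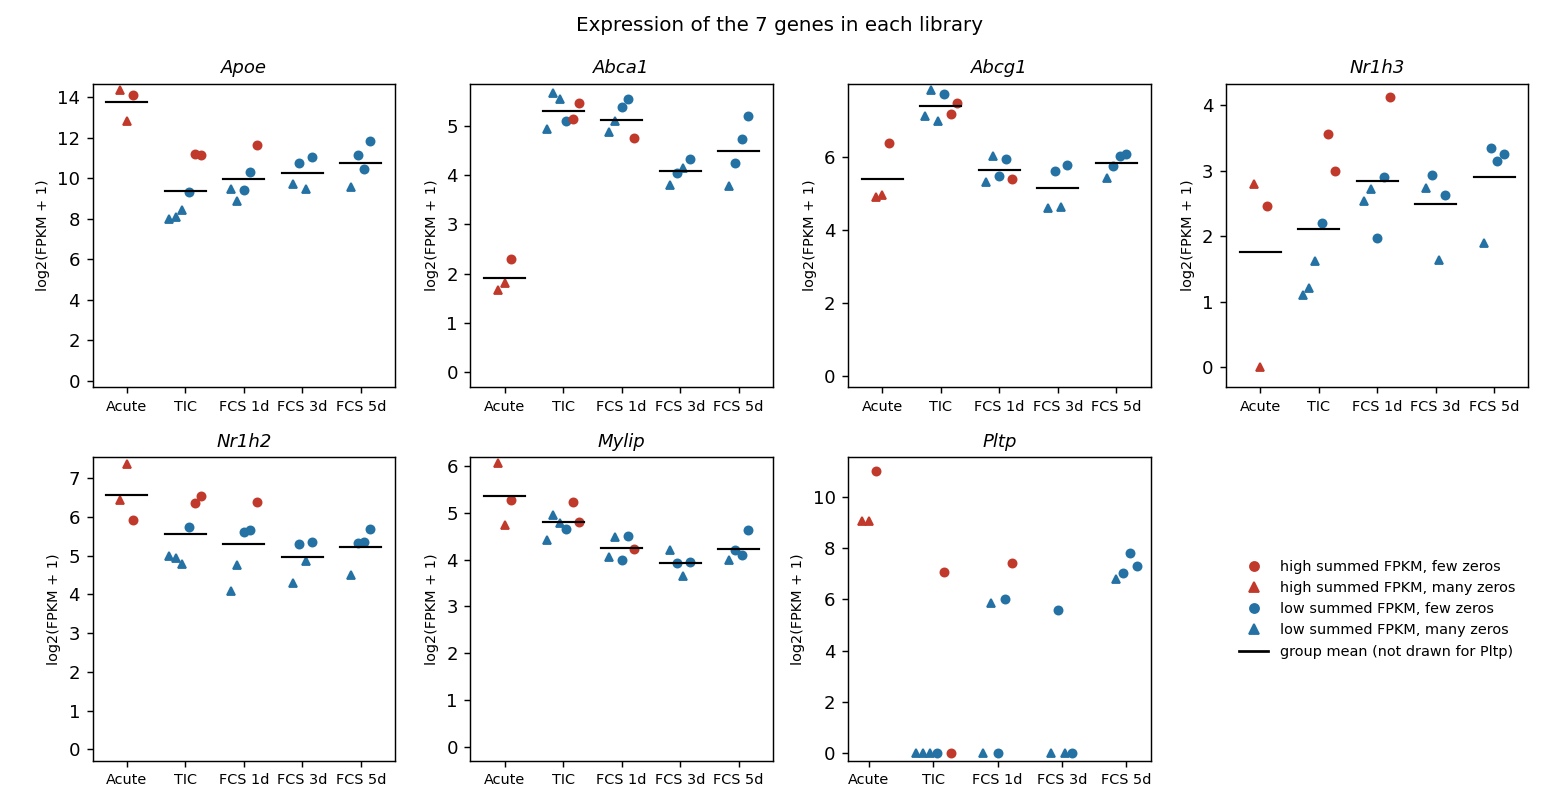
Level of each of the 7 genes in each library, as log2(FPKM + 1), by group; colour gives the library's summed FPKM (high or low), shape the number of tested genes at 0, and bars the group means (none for Pltp, which was listed at 0 in 10 libraries). Apoe was highest in the 3 Acute libraries, Abca1 lowest in them, and Abcg1 highest in the 6 TIC libraries.

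Apoe, the lipid carrier, was among the most abundant transcripts of freshly isolated microglia and far lower after culture. It was 20796, 7171 and 17436 FPKM in the 3 Acute libraries, where it ranked between 2 and 5 among all genes and held 1.27 to 3.19% of summed FPKM. In the 6 TIC libraries it was 251, 270, 341, 643, 2369 and 2270 FPKM, ranking between 25 and 228. Every TIC library lay below every Acute library. Apoe fell by 4.39 on the log2 scale (SE 0.71, limma adjusted p = 3.1e-05), with means of 15134 ± 7098 FPKM in Acute (SD, n = 3) and 1024 ± 1014 FPKM in TIC (SD, n = 6). This call held in 23 of 23 alternative settings, with log2 changes from -5.53 to -2.57.

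After serum, Apoe was 705, 476, 679, 1246 and 3212 FPKM in FCS 1d, 837, 1727, 707 and 2141 FPKM in FCS 3d, and 750, 2224, 1409 and 3635 FPKM in FCS 5d. Each of these groups overlapped TIC, and FCS 1d 5 stood above the other FCS 1d libraries. The group means were 1264 ± 1126 (SD, n = 5), 1353 ± 694 (SD, n = 4) and 2004 ± 1243 FPKM (SD, n = 4), and none of the differences from TIC was called in the fit of all libraries. The log2 differences were 0.58 (SE 0.61, limma adjusted p = 0.83) at 1 day, 0.89 (SE 0.65, limma adjusted p = 0.47) at 3 days and 1.38 (SE 0.65, limma adjusted p = 0.18) at 5 days.

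Border macrophage markers, 8 of 9 in the table, held 0.0154 to 0.0502% of summed FPKM in TIC. With serum they held 0.0656 to 0.103% in FCS 1d, 0.0871 to 0.154% in FCS 3d and 0.0660 to 0.146% in FCS 5d. Of the list, Cd163 and F13a1 were listed at 0 in every TIC and FCS 1d library, and Cd163 in every FCS 3d library. These shares were not tested, nor was the part of border macrophages in the Apoe level.

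Over the alternatives, the difference became called in none of 26 at 1 day, in 4 of 24 at 3 days and in 5 of 24 at 5 days, higher with serum each time. The result depended in part on TIC 5 and TIC 6, the TIC libraries with high summed FPKM. With both kept in, it became called at 3 and 5 days with a block for replicate number or a summed FPKM term. Quantile normalization also called it at 5 days. Apoe averaged 376 ± 182 FPKM (SD, n = 4) in the other 4 TIC libraries, and each FCS 3d and FCS 5d library lay above all of them. With TIC 5 and TIC 6 left out, an alternative added after the data were seen, Apoe was higher than in TIC by log2 1.80 at 3 days (limma adjusted p = 0.043) and 2.29 at 5 days (limma adjusted p = 0.0078), and both were called. At 1 day the difference was then 1.49 (limma adjusted p = 0.13), which was not called. Among libraries with few zeros alone, where TIC was left with TIC 4, TIC 5 and TIC 6, the Apoe difference at 5 days was 0.57. It was not called, and at 1 day the difference was -0.12.

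Apoe also varied with the number of zeros within each cultured group. In TIC it was 251 to 341 FPKM in the many-zero libraries and 643 to 2369 FPKM in the few-zero ones, which include TIC 5 and TIC 6. The same order held in FCS 3d, at 707 and 837 against 1727 and 2141 FPKM, and in FCS 5d, at 750 against 1409 to 3635 FPKM. In FCS 1d the ranges overlapped, at 476 and 705 against 679 to 3212 FPKM. The part of library make-up in these levels was not tested. Even in FCS 5d Apoe stayed below every Acute library, with a log2 change of -3.01 (SE 0.76, limma adjusted p = 0.0035), and the call was lost where the summed FPKM split entered the fit as a term (log2 -0.50, limma adjusted p = 0.60). All Acute libraries are in the high set and all FCS 5d libraries in the low set, so that term rests on TIC and FCS 1d.

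**Figure D2:**
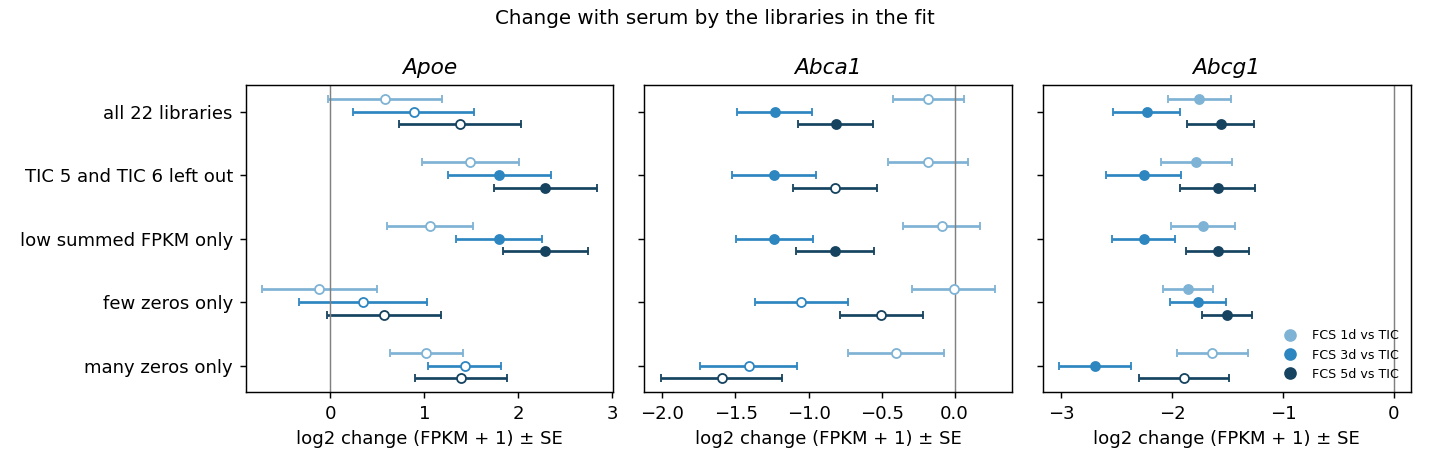
Log2 change (FPKM + 1) ± SE of Apoe, Abca1 and Abcg1 after 1, 3 and 5 days of serum against TIC, fitted with all 22 libraries, without TIC 5 and TIC 6, or with libraries of 1 kind; filled points had an adjusted p under 0.05. Apoe at 5 days ran from 0.57 with few-zero libraries to 2.29 with low summed FPKM, while Abcg1 was below 0 at each time in each fit. FCS 5d 1 was the only FCS 5d library with many zeros.

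Abca1, the transporter that starts particle assembly, went the other way from Apoe on culture. It was 2.17, 2.51 and 3.90 FPKM in the Acute libraries. The 6 TIC libraries lay between 29.7 and 49.5 FPKM with a median of 38.6 FPKM. No TIC library came near an Acute one. Abca1 rose by log2 3.38 (SE 0.28, limma adjusted p = 1.5e-09), with means of 2.86 ± 0.915 FPKM in Acute (SD, n = 3) and 39.3 ± 7.98 FPKM in TIC (SD, n = 6), in 23 of 23 alternatives. It was 28.4, 33.2, 40.8, 45.5 and 25.9 FPKM after 1 day of serum, overlapping TIC, and the log2 difference of -0.18 (SE 0.24, limma adjusted p = 0.88) was not called.

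By 3 days of serum Abca1 was lower in every library than in any TIC library, at 12.9, 15.4, 16.7 and 19.02 FPKM. It fell by 1.23 on the log2 scale (SE 0.26, limma adjusted p = 0.0027), a call lost with few-zero or many-zero libraries alone (limma adjusted p = 0.070 and 0.064). At 5 days it was 12.8, 18.1, 25.5 and 35.8 FPKM, and FCS 5d 4 lay within the TIC range. The 5-day fall of 0.81 on the log2 scale (a change of -0.81, SE 0.26, limma adjusted p = 0.038) was called but lost in 11 of 24 alternatives, among them median-of-ratios rescaling (limma adjusted p = 0.077). It was also lost without TIC 2, TIC 3, TIC 6, FCS 5d 1 or FCS 5d 2, with adjusted p up to 0.17 in leave-one-out fits. The difference between 3 days and 1 day itself was log2 -1.05 (SE 0.27) with a limma adjusted p of 0.055, and those libraries did not overlap. It was called in 7 of 22 alternatives, among them a pseudocount of 5 (limma adjusted p = 0.040) and a fit of only the groups compared (0.028), over an adjusted p range of 0.010 to 0.63. Abca1 in FCS 5d was still above Acute by log2 2.57 (SE 0.30, limma adjusted p = 6.6e-07).

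Abcg1, the transporter that lipidates formed particles, was highest in TIC and lay within its Acute range after 1 day of serum. It was 28.7, 29.9 and 81.6 FPKM in the Acute libraries. The TIC libraries lay between 125 and 227 FPKM with a median of 160.1 FPKM. The groups did not overlap, although Acute 3 stood well above the other Acute libraries. Abcg1 rose by log2 1.98 (SE 0.33, limma adjusted p = 5.1e-05, up to 0.065 over the alternatives), with means of 46.7 ± 30.2 FPKM in Acute (SD, n = 3) and 169.6 ± 41.9 FPKM in TIC (SD, n = 6). In FCS 1d it was 38.9, 63.9, 43.6, 59.7 and 40.8 FPKM, all below TIC. The fall at 1 day was 1.75 on the log2 scale (a change of -1.75, SE 0.28, limma adjusted p = 0.00054).

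Abcg1 stayed low with longer serum. It was 23.3, 47.6, 23.5 and 54.0 FPKM in FCS 3d and 41.6, 53.1, 63.5 and 66.8 FPKM in FCS 5d, and both groups lay wholly below TIC. It fell by 2.23 at 3 days (a log2 change of -2.23, limma adjusted p = 3.3e-05) and by 1.56 at 5 days (a log2 change of -1.56, limma adjusted p = 0.0011). In the fit of all libraries none of the serum groups differed from Acute by a called amount, and the signs of those differences changed between settings. FCS 5d against Acute was log2 0.41 (limma adjusted p = 0.38), but it was called without Acute 3 (log2 0.90, limma adjusted p = 0.040) and with quantile normalization (log2 1.02, limma adjusted p = 0.044). Leaving out any 1 library kept the 1-day, 3-day and 5-day calls. With many-zero libraries alone the 1-day fall missed the threshold (limma adjusted p = 0.063). FCS 5d 1 was the only FCS 5d library in that subset, so it cannot judge the 5-day call.

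The ratio of Abcg1 to Abca1 within a library, both in FPKM, described how far the transporters parted. It was 11.9 to 20.9 in Acute, 2.71 to 6.31 in TIC and 1.07 to 1.92 in FCS 1d, and these 3 ranges did not overlap. It was 1.40 to 3.09 in FCS 3d and 1.87 to 3.25 in FCS 5d, which overlapped TIC. These ratios were not tested.

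**Figure D3:**
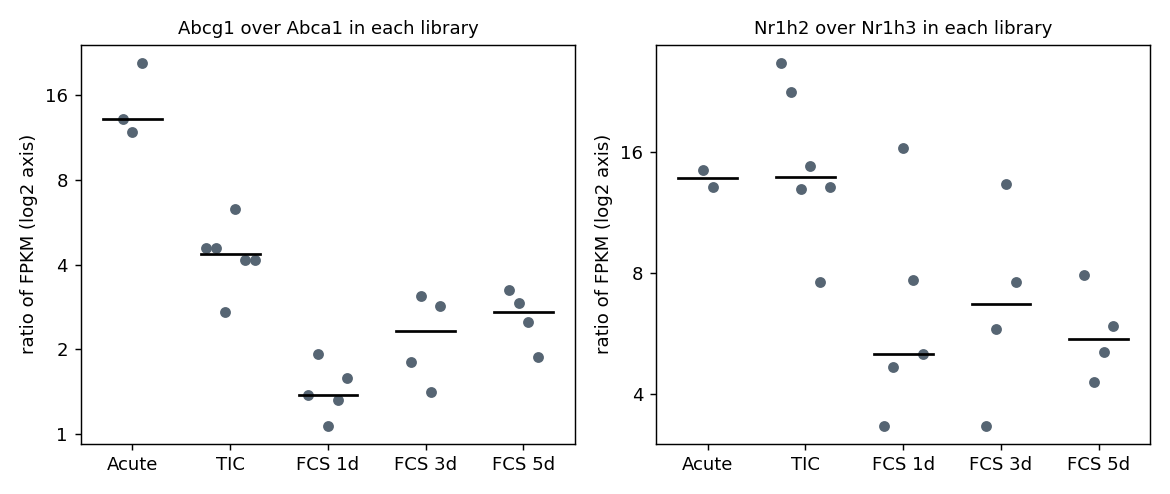
Ratio of Abcg1 to Abca1 FPKM and of Nr1h2 to Nr1h3 FPKM in each library by group, on log2 axes, with bars at the group medians; Acute 2 has no Nr1h2 to Nr1h3 ratio because Nr1h3 was listed at 0 there. The Abcg1 to Abca1 ratio was 11.9 or more in Acute and 1.92 or less in FCS 1d.

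Nr1h2 (LXR-beta), the widely expressed receptor, was the more abundant receptor in every library that held both. It was 86.0, 165 and 59.2 FPKM in the Acute libraries, while TIC libraries lay between 26.8 and 91.5 FPKM with a median of 41.8 FPKM. The groups overlapped, and the log2 difference of -1.01 (SE 0.46, limma adjusted p = 0.082) was not called. It became called, lower in TIC, in 7 of 23 alternatives, among them leaving out Acute 3, TIC 5 or TIC 6 (limma adjusted p = 0.043, 0.047 and 0.038). With few-zero libraries alone, where Acute 3 was the only Acute library, it turned to 0.30. It was 16.0 to 82.4 FPKM in FCS 1d, 18.8 to 39.6 FPKM in FCS 3d and 21.6 to 50.2 FPKM in FCS 5d. No serum group differed from TIC by a called amount. FCS 5d was below Acute by a called log2 change of -1.36 (SE 0.50, limma adjusted p = 0.034), lost in 8 of 19 alternatives, among them leaving out Acute 1, Acute 2, FCS 5d 1 or FCS 5d 2. FCS 1d was below Acute by -1.28 (limma adjusted p = 0.039), lost in 11 of 21 alternatives. FCS 3d was below it by -1.62 (limma adjusted p = 0.013), lost in 3 of 19.

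Nr1h2 levels followed the number of zeros in all 4 cultured groups. In TIC it was 52.7 to 91.5 FPKM in few-zero libraries against 26.8 to 30.9 FPKM in many-zero ones, and in FCS 1d 47.8 to 82.4 against 16.0 and 26.0 FPKM. In FCS 3d it was 38.7 and 39.6 against 18.8 and 28.3 FPKM, and in FCS 5d 39.1 to 50.2 against 21.6 FPKM. The part of library make-up in Nr1h2 levels was not tested.

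Nr1h3 (LXR-alpha), the receptor typical of macrophages and liver, was low everywhere. It was 5.95, 0 and 4.53 FPKM in Acute, 1.16 to 10.8 FPKM in TIC, 2.92 to 16.4 FPKM in FCS 1d, 2.12 to 6.67 FPKM in FCS 3d and 2.73 to 9.14 FPKM in FCS 5d. All groups overlapped, and no comparison called it in the fit of all libraries. Over the alternatives it became called, in the same direction, in 1 of 23 for TIC against Acute and 1 of 24 for FCS 5d against TIC. Against Acute it became called, higher with serum, in 1 of 21 for FCS 1d, 1 of 19 for FCS 3d and 2 of 19 for FCS 5d. The TIC values of 10.8 and 7.00 FPKM belonged to TIC 5 and TIC 6, and 16.4 FPKM to FCS 1d 5, all libraries with high summed FPKM. Nr1h2 exceeded Nr1h3 by 7.59 to 26.7 times in TIC and by 4.28 to 7.93 times in FCS 5d.

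Mylip, the ubiquitin ligase that limits cholesterol uptake, declined from Acute through TIC to the serum groups in its group means. It was 66.0, 25.8 and 37.7 FPKM in the Acute libraries, while TIC libraries lay between 20.5 and 36.6 FPKM with a median of 26.7 FPKM. These overlapped, and the log2 difference of -0.55 (SE 0.26, limma adjusted p = 0.094) was not called, though it was without Acute 2 (log2 -0.86, limma adjusted p = 0.017). At 3 days of serum it was 17.6, 14.3, 11.6 and 14.4 FPKM, all below TIC, a called fall of 0.87 on the log2 scale (a change of -0.87, SE 0.24, limma adjusted p = 0.022). In 6 of 24 alternatives it was no longer called, among them leaving out FCS 3d 2, FCS 3d 3 or FCS 3d 4. FCS 1d at 14.9 to 21.7 FPKM and FCS 5d at 14.9 to 23.9 FPKM overlapped TIC and were not called. Against Acute, Mylip in FCS 5d fell by 1.13 on the log2 scale (a change of -1.13, SE 0.28, limma adjusted p = 0.0033). It missed the threshold in 5 of 19 alternatives, among them median-of-ratios rescaling and quantile normalization (limma adjusted p = 0.055 and 0.14). Mylip in FCS 1d was below Acute by log2 -1.11 (limma adjusted p = 0.0026), lost in 4 of 21 alternatives. In FCS 3d the change was -1.42 (limma adjusted p = 0.00044), called in 19 of 19.

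Pltp, the phospholipid transfer protein, was high in fresh cells and listed at 0 in most TIC libraries. It was 536, 537 and 2031 FPKM in Acute. In TIC it was listed at 0 in 5 libraries and at 135 FPKM in TIC 5. In serum it was listed at 0, 57.4, 0, 64.4 and 171 FPKM in FCS 1d, at 0, 47.6, 0 and 0 FPKM in FCS 3d, and at 110, 131, 222 and 158 FPKM in FCS 5d. Every FCS 5d library thus had a value, all below Acute, and TIC 5 lay among them.

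The lowest Pltp value above 0 was 47.6 FPKM, and no library held a value between 0 and that. Only 27 tested genes had both a zero and no value under 20 FPKM otherwise. In 7 of these, Pltp among them, zeros and values were mixed among the cultured libraries. In the RefSeq table Pltp overlaps the lysosomal protease gene Ctsa, which was 393 to 1388 FPKM in all libraries. An exact 0 may here be a failed estimate, so no fold is given. On the log2 scale limma called Pltp lower in TIC than in Acute (adjusted p = 0.00031) and higher in FCS 5d than in TIC (adjusted p = 0.0094).

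Counted together, 4 of the 7 genes were called in TIC against Acute, Abca1 and Abcg1 higher and Apoe and Pltp lower, where 42.4% of all tested genes were called (14.7% higher and 27.7% lower). The share of members was thus near the background. Over all tested genes 1424 were higher and 2682 lower as deposited, but 2023 and 1976 after median-of-ratios rescaling, which left the directions of the 4 called members as they were. The median of all tested genes was itself -0.29 on the log2 scale in that comparison and -0.38 in FCS 5d against Acute, shifts that rescaling removed. Against TIC, 1 of 7 was called at 1 day (Abcg1, lower), where 2.92% of all genes were called and 1.7% were lower. At 3 days 3 were called (Abca1, Abcg1 and Mylip, all lower), against 10.1% of all genes and 5.95% lower. At 5 days 3 were called (Abca1 and Abcg1 lower, Pltp higher), against 12.9% of all genes, 8.1% lower and 4.81% higher. Quantile normalization gave 2 members higher and 1 lower at 5 days, beside 762 higher and 753 lower over all genes. Rescaling gave 1 and 1, beside 674 and 794 over all genes. The Pltp calls in TIC against Acute and in FCS 5d against TIC rest on the TIC libraries listed at 0, which may be failed estimates. Without TIC 5 and TIC 6 the counts were 2 higher and 3 lower in TIC against Acute, and against TIC 0 and 1 at 1 day, 1 and 2 at 3 days and 2 and 1 at 5 days. Over all tested genes the same fit called 1183 higher and 3183 lower in TIC against Acute. Against TIC it called 223 and 141 at 1 day, 489 and 343 at 3 days and 565 and 531 at 5 days. The TIC libraries are shared by the 3 comparisons with serum groups and by the comparison with Acute.

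Between serum groups none of the 7 was called by limma in the fit of all libraries: 0 of 7 in FCS 5d against FCS 1d, where 5.38% of all genes were called, with 2 (Abca1 and Pltp) at an unadjusted p under 0.05. The counts were 0 of 7 in FCS 3d against FCS 1d (1.08% of all genes; 1 at an unadjusted p under 0.05, Abca1) and 0 of 7 in FCS 5d against FCS 3d (0.629%; 1, Pltp). Against Acute, 5 of 7 were called in FCS 1d (38.3% of all genes), 5 in FCS 3d (39.4%) and 4 in FCS 5d (39.8%). In each, Abca1 was higher and the other called genes were lower. The Pltp calls in FCS 1d and FCS 3d rest in part on libraries listed at 0 (2 of 5 and 3 of 4), which may be failed estimates. In FCS 5d Pltp was not called, although all its values lay below Acute.

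**Figure D4:**
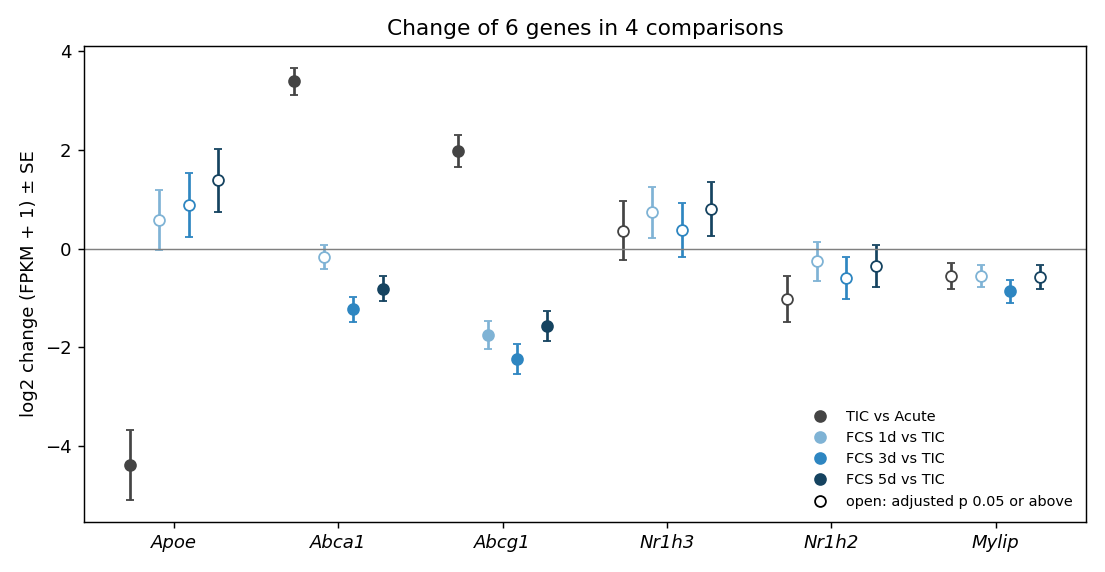
Log2 change (FPKM + 1) ± SE of 6 genes in TIC against Acute and in FCS 1d, 3d and 5d against TIC; filled points had a limma adjusted p under 0.05, and Pltp is left out because of its zeros. Apoe and Abca1 lie at -4.39 and 3.38 in TIC against Acute, and Abcg1 lies below 0 in all 3 serum comparisons.

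Ordered by mean log2 level, Apoe ran Acute, FCS 5d, FCS 3d, FCS 1d, TIC, and among neighbours only Acute and FCS 5d differed by a called amount. Abca1 ran TIC, FCS 1d, FCS 5d, FCS 3d, Acute, and only FCS 3d and Acute differed as neighbours. Abcg1 ran TIC, FCS 5d, FCS 1d, Acute, FCS 3d, and only TIC and FCS 5d did. No neighbours differed for Nr1h3, Nr1h2, Mylip or Pltp.

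The other LXR targets moved in both directions on culture and with serum. Of 13 tested, 7 were higher and 4 lower in TIC than in Acute, where 42.4% of all tested genes were called, with a median log2 change of 1.16. Lpl, the lipoprotein lipase, went with means of 1.06 ± 1.00 FPKM in Acute (SD, n = 3) and 669.8 ± 113 FPKM in TIC (SD, n = 6), a log2 change of 8.47 (limma adjusted p = 3e-15). Srebf1, the regulator of fatty acid synthesis, rose by log2 1.16 (limma adjusted p = 0.0019). Mlxipl, a glucose-sensing regulator of lipid synthesis, fell by 5.28 on the log2 scale (limma adjusted p = 3.4e-08). At 1 day of serum 6 of the 13 were lower and 1 higher, against 2.92% of all genes called, with a median of 0.44 that is opposite in sign to most calls. At 3 days 5 were lower and 3 higher, against 10.1%, with a median of -0.36.

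Srebf1 was 52.9 ± 8.30 FPKM (SD, n = 6) in TIC and 8.41 ± 2.04 FPKM (SD, n = 5) in FCS 1d, a log2 fall of 2.53 (a change of -2.53, limma adjusted p = 1.1e-06). Scd2, a fatty acid desaturase, fell from 450.5 ± 84.7 FPKM to 69.4 ± 5.92 FPKM at the same time (limma adjusted p = 4.1e-05). Lpl fell to 154.2 ± 58.6 FPKM at 1 day (limma adjusted p = 8e-05) and was 482 ± 181 FPKM at 5 days, where its difference from TIC was not called (limma adjusted p = 0.28). At 5 days 2 of the 13 were higher and 6 lower, against 12.9% of all genes called, with a median of -0.56, against -0.079 over all tested genes.

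Among receptor partners and coregulators, 1 of 11 was higher and 5 lower in TIC than in Acute, against 14.7% and 27.7% of all tested genes, with a median log2 change of -0.55 against -0.29 over all genes. Rxrb, an RXR that pairs with LXR, fell from 20.02 ± 4.11 to 3.00 ± 1.55 FPKM (limma adjusted p = 4.2e-05). Rxra was 3.08 ± 2.22 FPKM in TIC and 9.83 ± 2.63 FPKM in FCS 5d, a log2 rise of 1.62 (limma adjusted p = 0.027), the one call of 11 in this list at 5 days, against 12.9% of all genes. Of 4 tested genes of sterol ligand metabolism, 3 were higher in TIC than in Acute and none lower, against 14.7% of all genes higher. Without TIC 5 and TIC 6 the counts were 2 higher and 1 lower, beside 1183 higher and 3183 lower over all tested genes. Ch25h, which makes 25-hydroxycholesterol, rose from 80.2 ± 12.2 to 363 ± 32.9 FPKM (limma adjusted p = 1.1e-05) and was lower again in FCS 5d at 164 ± 88.7 FPKM (limma adjusted p = 0.0034).

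Of 13 genes of cholesterol transport and esterification, 4 were higher and 2 lower in TIC than in Acute, with a median log2 change of 0.23. The share called was near the 42.4% of all tested genes. Soat1, which esterifies cholesterol for storage, rose from 11.2 ± 8.58 to 68.7 ± 15.9 FPKM (limma adjusted p = 8.4e-07), and Nceh1, a cholesteryl ester hydrolase, rose with it (log2 2.32, limma adjusted p = 5.1e-08). After median-of-ratios rescaling 6 were higher and 1 lower, beside 2023 and 1976 over all tested genes. Without TIC 5 and TIC 6 the list had 3 higher and 3 lower, beside 1183 and 3183 over all tested genes. At 1 day of serum 0 of the list were called by limma, with 5 at an unadjusted p under 0.05, and 5 were lower at 5 days, or 3 without TIC 5 and TIC 6, where 8.1% of all genes were lower with all libraries. Among 8 lipoprotein receptors, 2 were higher and 3 lower in TIC, against 42.4% of all genes called. After rescaling 4 were higher and 3 lower, beside 2023 higher and 1976 lower over all tested genes. Msr1, a scavenger receptor, rose by log2 6.31 (limma adjusted p = 9.5e-11).

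SREBP2 targets, the cholesterol synthesis genes that cells shut off when sterol is plentiful, were called in 1 direction with serum. Of 14 tested, 2 were higher and 2 lower in TIC than in Acute, against 42.4% of all genes called. After rescaling the counts were 4 and 1, beside 2023 higher and 1976 lower over all tested genes. With serum 6, 8 and 7 were lower and none higher than TIC at 1, 3 and 5 days, where 1.7%, 5.95% and 8.1% of all genes were lower. The median log2 changes of the list were -0.87, -0.99 and -0.84, against -0.0069, -0.057 and -0.079 over all genes. Insig1, which holds SREBP in the endoplasmic reticulum, fell from 44.1 ± 13.9 FPKM in TIC to 8.97 ± 5.90 FPKM in FCS 1d (limma adjusted p = 6.2e-05).

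**Figure D5:**
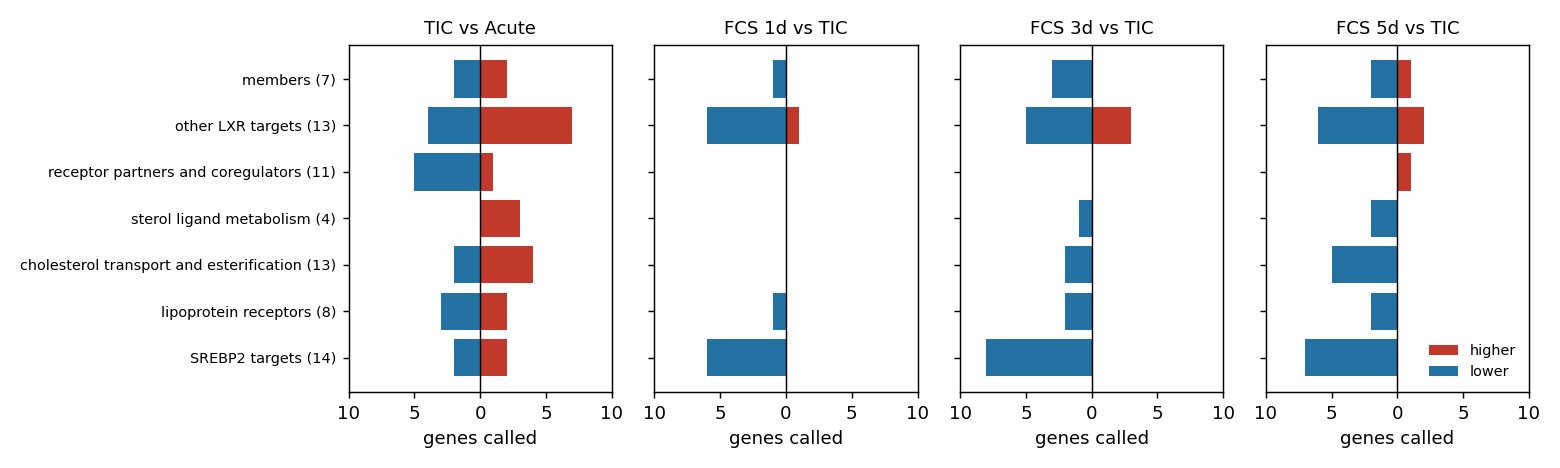
Number of genes called higher (red, right) or lower (blue, left) in each list in 4 comparisons, with the number tested in brackets. With 1 day of serum 6 of 13 other LXR targets and 6 of 14 SREBP2 targets were lower than in TIC.

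The genes with profiles most like Apoe over all 22 libraries, by the root mean square difference of centred log2 values, were Ldhb (0.54), Tnnt1 (0.63), Tifa (0.71), Tmem176b (0.72) and Fgd2 (0.75), where Apoe's own profile had an SD of 1.73. Over the 19 cultured libraries alone they were Aldh2 (0.42), Ldhb (0.46), Gas6 (0.51), Arl2 (0.53) and Ict1 (0.55), with an Apoe SD of 1.18, so Ldhb appeared in both. For Abca1 the closest over 22 libraries was Rpp25 (0.47) and over 19 Gpbp1l1 (0.35), and the 5 closest shared no gene between the 2 sets of libraries. These points share libraries and their differences in zeros and summed FPKM.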

How the data were processed

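The authors deposited 1 table of FPKM values, with 1 column for each of 22 samples and 17284 gene symbols. HISAT2 2.0.3, Cufflinks 2.2.1 and build rn6 are named, without roles, per the submitters' processing notes. The sources used here do not give the annotation or any scaling across libraries. SmartSeq2 cDNA and Nextera XT libraries were sequenced as 75 bp pairs on a MiSeq, per the labels' protocols, which do not mention strand, so overlapping genes cannot be told apart.

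FPKM were taken as log2(FPKM + 1), which understates the change of low genes. The filter of 1 FPKM or more in 3 or more samples left 9691 genes. A single limma model (version 3.58.1, R 4.3.3) estimated the means of all 5 groups, with trend and robust variances. Tests were two-sided over 10 comparisons, and adjusted p-values are limma's Benjamini-Hochberg values over all tested genes in a comparison. The fit was tested on simulated data. FPKM hold no read totals, so counting error is unknown; steps between low values gave a clear depth relative to TIC 1 in 8 of 21 libraries, 0.858 to 1.12 times in 7 with many zeros and 1.55 times in Acute 3. Of all pairs of libraries, FCS 3d 2 was closest to FCS 3d 4 (r = 0.979 over genes), and 0 of their values were identical.

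Members and lists were chosen with earlier results of these data known. Text genes were the 7 members, up to 3 called genes with the largest change per list in TIC against Acute and in FCS 1d and 5d against TIC, and Srebf1, Lpl and Rxra whatever their result, of which only some are printed. A further gene that this rule names is not reported here. Marker lists covered microglia, border macrophages, astrocytes, oligodendrocytes, neurons, vessels, granulocytes, lymphocytes, red cells and choroid plexus. The alternatives changed the pseudocount to 0.1 or 5, removed the filter or raised it to 5 FPKM, or applied median-of-ratios or quantile scaling. Others used only the groups compared, a replicate block, terms for or subsets by summed FPKM (split at 500000) and zeros (split at 800), and each library left out. Promoters came from RefSeq (GRCr8), for 6 of the 7 genes; rn6 sequence was not used.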

Additional observations from a re-analysis of the deposited data

Results flagged for a closer look

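Of 28 groups of 4 or more libraries tested for a single library far from the rest, 4 were picked out. The rule picks about 1 in 20 where values are independent and bell-shaped, which does not hold for zeros or shared libraries. In FCS 1d, replicate 5 held Apoe at 3212 FPKM, with the next library at 1246 FPKM, and Nr1h3 at 16.4 FPKM, with the next at 6.48 FPKM. It is the FCS 1d library with high summed FPKM. Pltp was at 135 FPKM in TIC 5 while the other TIC libraries were listed at 0, and at 47.6 FPKM in FCS 3d 2 while the other FCS 3d libraries were listed at 0. A lone value beside zeros is always picked by this rule, so the zeros fixed the Pltp flags.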

How the results depend on the processing

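The fall of Apoe and the rise of Abca1 in TIC against Acute, and the lower Abcg1 at 3 days of serum, kept direction and call in every alternative run. For Apoe in TIC against Acute the leave-one-out range was -4.86 to -4.09 on the log2 scale. Apoe at 3 days against TIC became called with the summed FPKM term (1.72), with low summed FPKM libraries or without TIC 5 and TIC 6 (1.80 in each). At 5 days it became called under the same settings (2.21, 2.29 and 2.29) and with quantile normalization (1.74). Apoe in FCS 5d against Acute lost its call with the summed FPKM term (-0.50). The cause was not tested.

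The number of the 7 genes called moved as follows. In TIC against Acute it was 2 with high summed FPKM libraries alone. In FCS 1d against TIC it was 0 with many-zero libraries alone. In FCS 3d against TIC it was 1 with few-zero or with many-zero libraries alone. In FCS 5d against TIC it was 5 with low summed FPKM libraries alone and 1 with few-zero libraries alone. In FCS 5d against Acute it was 2 with the summed FPKM term. Subsets hold fewer libraries, and no count is given where a compared group kept a single library. Those were FCS 1d 5 with high summed FPKM, FCS 5d 1 with many zeros and Acute 3 with few zeros. The number of all genes called in these fits is not set beside the counts, so they are not read against the background.

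The labels do not say what a replicate number marks, so the numbers were not taken to pair the samples. Of 37 same-numbered pairs 18 correlated above 0.1 (range -0.10 to 0.48). Those with an Acute library ran from -0.10 to 0.15, and those between cultured libraries from -0.052 to 0.48. As a hint from the data, the median of all same-numbered pairs was 0.097 against -0.036 for other pairs. Of 22 samples, 18 correlated best with their own number. With the replicate block Apoe was called higher in FCS 3d (1.73) and FCS 5d (2.23) than in TIC and in FCS 5d than in FCS 1d (1.29), where 2 of the 7 genes were called in place of 0. The number of all genes called with the block is not set beside that count. With the block Nr1h3 in TIC against Acute was -0.30, Nr1h2 0.11 in FCS 5d against TIC and 0.17 in FCS 5d against FCS 1d, and Mylip 0.034 in the latter, all turned in sign.

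The remaining sign changes were of differences not called in the reported fit. Without TIC 5 and TIC 6, Nr1h3 in TIC against Acute was -0.22, and Nr1h2 against TIC 0.18 at 1 day and 0.096 at 5 days. Rescaling gave 0.064 for Mylip in FCS 5d against FCS 1d and 0.16 for Abcg1 in FCS 3d against Acute. Quantile normalization gave 0.091 and 0.29 for these, and 0.034 for Nr1h2 in FCS 5d against FCS 1d. Few-zero libraries gave 0.30 for Nr1h2 in TIC against Acute, -0.12 for Apoe in FCS 1d and -0.13 for Nr1h3 in FCS 3d against TIC, and 0.078 for Mylip in FCS 5d against FCS 1d. They gave Abcg1 at -0.42 in FCS 5d and -0.77 in FCS 1d against Acute, and 0.095 in FCS 3d against FCS 1d. Acute 3 was the only Acute library with few zeros. High summed FPKM libraries, with FCS 1d 5 the only FCS 1d library, gave -0.017 for Abcg1 in FCS 1d against Acute. Low ones gave 0.096 for Nr1h2 in FCS 5d against TIC and 0.18 against FCS 1d. Many-zero libraries gave -0.085 for Nr1h3 in TIC against Acute, and in FCS 5d against FCS 1d -0.25 for Abcg1, -0.72 for Nr1h3 and 0.082 for Nr1h2. They gave 0.17 for Nr1h2 in FCS 3d against FCS 1d, and in FCS 5d against FCS 3d -0.036 for Apoe, -0.18 for Abca1, -0.29 for Nr1h3 and -0.089 for Nr1h2. FCS 5d 1 was the only FCS 5d library with many zeros. The summed FPKM term gave 0.099 for Nr1h2 in FCS 5d against TIC, 0.18 for Nr1h2 and 0.022 for Mylip against FCS 1d, and 1.41 for Pltp against Acute. The zeros term gave -0.091 for Nr1h3 in FCS 5d against FCS 1d.

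Leave-one-out ranges that crossed 0 were -0.52 to 0.88 for Nr1h3 in TIC and -0.15 to 1.25 in FCS 3d against Acute, and -0.033 to 0.70 for Abcg1 in FCS 1d and -0.51 to 0.23 in FCS 3d against Acute. Against TIC they were -0.53 to 0.042 for Nr1h2 in FCS 1d and -1.18 to 1.40 for Pltp in FCS 3d. In FCS 5d against FCS 1d they were -0.16 to 0.40 for Nr1h3, -0.39 to 0.18 for Nr1h2 and -0.15 to 0.066 for Mylip. Low summed FPKM libraries alone were not run for comparisons with Acute, nor high ones for FCS 3d and FCS 5d, since those groups hold none. With depth unknown, low values such as those of Nr1h3 carry an error that cannot be stated.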

Other observations

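Border macrophage markers, 8 of 9 in the table and 6 tested, held 0.0172 to 0.0355% of summed FPKM in Acute. Mrc1, a scavenger receptor of border macrophages, was 4.79 to 14.2 FPKM in TIC and 77.9 to 137 FPKM in FCS 5d. In the same list Cd163 and F13a1 were listed at 0 in every TIC library. Choroid plexus markers held at most 0.0912% of summed FPKM in any library, oligodendrocyte markers at most 0.0557%, lymphocyte markers at most 0.0608%, vascular markers at most 0.00583% and neuronal markers at most 0.00515%. Red blood cell markers held 0.130 to 0.297% in Acute and were listed at 0 in every cultured library. Their part in the levels of the efflux genes was not tested.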
